A study of Mus musculus with 10 samples.

Results

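The 10 genes described here encode the proteins that carry out or mark steroid synthesis in Leydig cells: *Star*, *Cyp11a1*, *Hsd3b1*, *Hsd3b6*, *Cyp17a1*, *Hsd17b3*, *Hsd17b1*, *Insl3*, *Lhcgr* and *Nr5a1*. They were chosen by symbol, as steroidogenic enzymes and Leydig cell markers, and each matched 1 of the 54232 genes in the count table. Their transcripts were measured by bulk RNA-seq of whole testes at postnatal day 4 (P4) in 5 *Dis3* cKO and 5 control mice. The floxed *Dis3* line was made from B6D2F1 zygotes. The *Dis3* cKO mice were *Dis3* F/-; *Ddx4-Cre*, in which exons of the nuclear RNA exosome ribonuclease *Dis3* are deleted by a Cre expressed in male germ cells, and the controls, labelled *Dis3* WT, were siblings from the same litters. RNA of each library came from the pooled testes of 1 mouse. The Cre thus acts in germ cells and was not aimed at the Leydig cells that use the genes described here. By its notation, the F/- genotype also leaves other cells, Leydig cells among them, with 1 deleted *Dis3* allele. The part of that allele in the levels below was not tested.

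Leydig cells lie between the testis cords and make androgens from cholesterol. Luteinizing hormone acts on its receptor LHCGR, cAMP rises, StAR moves cholesterol into the mitochondrion, and CYP11A1 cleaves its side chain to give pregnenolone. A 3β-hydroxysteroid dehydrogenase and CYP17A1 then turn pregnenolone into androstenedione, which 17β-hydroxysteroid dehydrogenase 3 reduces to testosterone. In the newborn mouse testis these cells are mostly fetal Leydig cells, and the adult population forms later. In the fetal mouse testis the last reduction is known to take place in Sertoli cells, which express *Hsd17b3* and *Hsd17b1*, and *Nr5a1*, which encodes the nuclear receptor SF-1, is active in Sertoli cells as well as in Leydig cells. *Insl3* encodes the Leydig cell hormone that draws down the testis.

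The gene table held 28538849 to 37739906 assigned reads in *Dis3* cKO libraries and 35391042 to 41104912 in controls (exact permutation test of the totals, two-sided, p = 0.0397). *Dis3* itself had 1362 to 1709 normalized counts in *Dis3* cKO testes and 4115 to 5161 in controls, a log2 fold change of -1.62 ± 0.09 (SE, edgeR adjusted p = 3.8e-07). Normalized counts are counts scaled by library size and TMM factor. Of 12 germ cell markers, 11 were tested and 7 fell, against 3.48% of all genes tested called lower. The summed level of the 12 was 21760 to 28409 in *Dis3* cKO and 30278 to 36552 in control libraries. The libraries numbered 1 to 3 and those numbered 4 and 5 stood apart in both groups. Over the 20043 genes tested, deviations from the group mean correlated at 0.0183 to 0.183 between a *Dis3* cKO and a control library of the same set. Between libraries of different sets they correlated at -0.178 to -0.0775. Deviations within a group sum to 0, so positive correlations with some libraries require negative ones with others. Replicates 1 to 3 were not alike in the *Dis3* cKO. There the chi-square per degree of freedom of counts was 21.4 and 26.1 for replicate 1 against 2 and 3, and 4.68 between 2 and 3. Against replicates 4 and 5 it was 29.1 and 32.2 for replicate 1. No label names a batch, so the fold changes of the genes tested are also given or plotted within each set. In whole testes, fewer cells of a type and less RNA per cell cannot be told apart.

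*Hsd3b1* and *Hsd3b6* encode 3β-hydroxysteroid dehydrogenases, which oxidise pregnenolone to progesterone, and in the mouse *Hsd3b6* is known from adult Leydig cells. The genes lie next to each other on the minus strand of chromosome 3 in GRCm38, *Hsd3b1* (ENSMUSG00000027871.16) at chr3:98852194-98859794 and *Hsd3b6* (ENSMUSG00000027869.14) at chr3:98805504-98814443. Their coding sequences have the same length, 1122 bases, and are identical at 1010 aligned positions (90.02%), with 112 differences. The opening 90 coding bases, from GENCODE M39 transcripts, are shown because the near absence of *Hsd3b6* reads depends on how well the pair can be told apart. Capitals mark the 12 positions at which they differ.
Hsd3b1: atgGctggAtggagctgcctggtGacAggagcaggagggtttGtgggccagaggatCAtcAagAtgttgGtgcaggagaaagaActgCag
Hsd3b6: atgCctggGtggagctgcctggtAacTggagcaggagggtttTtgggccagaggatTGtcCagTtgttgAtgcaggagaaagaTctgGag
Of the 1073 stretches of 50 bases in the *Hsd3b6* coding sequence, 38 (3.54%) also occur in that of *Hsd3b1*, so most reads of that length would hold at least 1 difference. The 60 bases just before each start, taken from RefSeq on GRCm38.p6 and both on the minus strand, are printed next to show how the upstream sequences of the pair compare; *Hsd3b1* lies at chr3:98859795-98859854 and *Hsd3b6* at chr3:98814444-98814503.
Hsd3b1: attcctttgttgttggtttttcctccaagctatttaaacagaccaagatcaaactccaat
Hsd3b6: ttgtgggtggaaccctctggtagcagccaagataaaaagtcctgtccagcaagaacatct

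*Hsd3b1* was among the most abundant of the 10 transcripts, and *Hsd3b6* was at the limit of detection. *Hsd3b6* had 0, 2, 3, 1 and 10 reads in *Dis3* cKO replicates 1 to 5, against 7, 5, 0, 7 and 2 reads in control replicates 1 to 5. Neither group stood higher, 1 library of each held no read, and the gene did not pass the filter on low counts, so 9 of the 10 genes were tested. *Hsd3b1* had 5989, 6611, 6751, 9225 and 9496 normalized counts in *Dis3* cKO replicates 1 to 5, against 6309, 6990, 6155, 9000 and 8981 in controls. The groups overlapped throughout, and replicates 4 and 5 were above replicates 1 to 3 in each of them. Between *Dis3* cKO and control testes it differed by 0.02 ± 0.15 on the log2 scale (SE, 95% interval -0.29 to 0.34, edgeR adjusted p = 0.943).

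**Figure D1:**
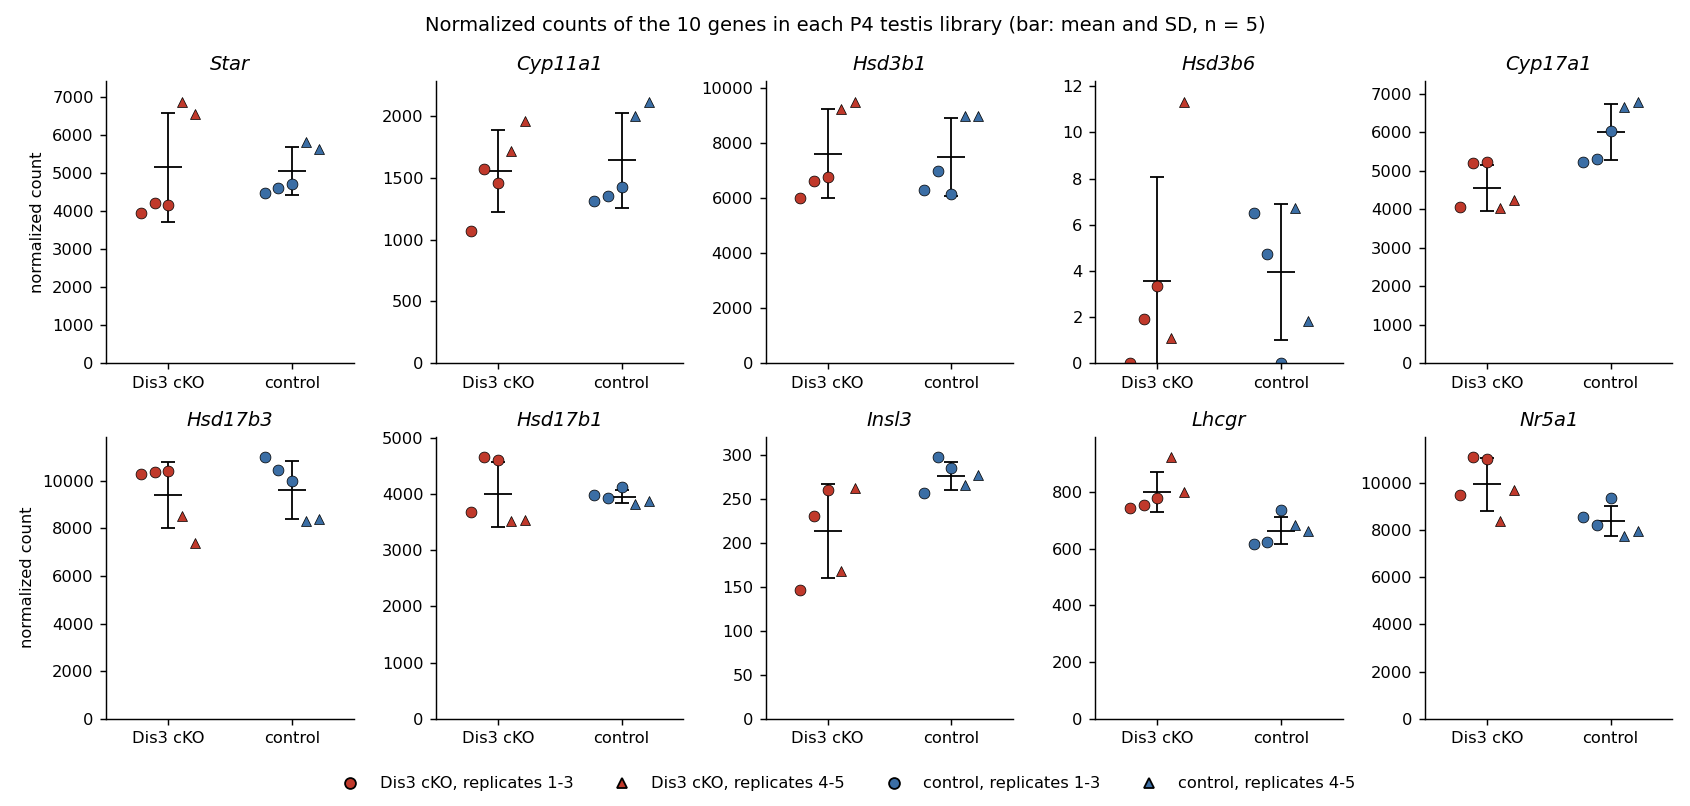
Normalized counts (y axis, from 0) of the 10 genes in each *Dis3* cKO (red) and control (blue) library, in which replicates 1 to 3 are circles and replicates 4 and 5 triangles, and the bar is the mean and SD of the 5 libraries. Every *Dis3* cKO library is below every control library for *Cyp17a1* and above for *Lhcgr*, while *Star*, *Cyp11a1* and *Hsd3b1* are higher in replicates 4 and 5 of both groups.

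Among the 9 genes tested, 1 was called lower in *Dis3* cKO testes and 0 higher at an edgeR adjusted p under 0.05, against 3.48% of all genes tested called lower and 4.42% called higher. At an unadjusted edgeR p under 0.05, 2 were lower and 2 higher, against 2432 lower and 2361 higher of all 20043 genes tested. DESeq2 called 1 lower and 2 higher, and its share over all genes is not given here. The median of the 9 genes was 0.02 on the log2 scale, and that of all genes tested was -0.01. *Cyp17a1* was the gene called lower. For *Cyp17a1* and *Lhcgr* the groups did not overlap, which was so for 4.31% of all genes in the lower and 4.59% in the higher direction.

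*Cyp17a1* (ENSMUSG00000003555.7, chr19:46667165-46672974) encodes the P450 enzyme of 17α-hydroxylation and of the cleavage that gives androgens. It had 4054, 5200, 5218, 4045 and 4233 normalized counts in *Dis3* cKO replicates 1 to 5, against 5241, 5299, 6044, 6648 and 6792 in control replicates 1 to 5. All *Dis3* cKO libraries were below all controls, narrowly in replicates 1 to 3, where the highest *Dis3* cKO library and the lowest control library nearly met. The mean fell to 4550 ± 606 in *Dis3* cKO testes, against 6005 ± 727 in controls (SD, n = 5 each; exact permutation test, two-sided, p = 0.00794, the smallest that 5 against 5 allows). The log2 fold change was -0.40 ± 0.10 (SE, 95% interval -0.62 to -0.18, edgeR adjusted p = 0.027).

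The lower *Cyp17a1* level was larger in replicates 4 and 5. Within that set the log2 fold change was -0.69 ± 0.06 (edgeR adjusted p = 9.5e-08), and within replicates 1 to 3 it was -0.20 ± 0.10 (edgeR adjusted p = 0.267). The former fit rests on replicates 4 and 5 alone in each group, a set chosen with earlier results of these data known. Its share of all genes called is not given here. The difference of the fold changes, replicates 4 and 5 minus replicates 1 to 3, was -0.50 ± 0.14 on the log2 scale. It passed the interaction test (edgeR adjusted p = 0.047), as did 4.58% of all genes in either direction. The *Dis3* cKO libraries averaged 4139 normalized counts in replicates 4 and 5 and 4824 in replicates 1 to 3, whereas the controls averaged 6720 in replicates 4 and 5 and 5528 in replicates 1 to 3. The call was lost without *Dis3* cKO replicate 1, 4 or 5 (edgeR adjusted p = 0.062, 0.060 and 0.070) or without control replicate 4 or 5 (0.067 and 0.070), and the log2 fold change stayed between -0.45 and -0.35 over the 10 fits that left out a library.

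*Star* (ENSMUSG00000031574.8, chr8:25806555-25815982), which encodes the cholesterol transporter of the mitochondrion, had 3957, 4202, 4155, 6870 and 6552 normalized counts in *Dis3* cKO replicates 1 to 5, against 4466, 4595, 4705, 5823 and 5637 in controls. In replicates 1 to 3 every *Dis3* cKO library was below the controls, and in replicates 4 and 5 every *Dis3* cKO library was above them. Over all libraries the log2 fold change was 0.03 ± 0.16 (95% interval -0.30 to 0.36, edgeR adjusted p = 0.937). It was -0.16 ± 0.07 in replicates 1 to 3 (edgeR adjusted p = 0.164) and 0.24 ± 0.06 in replicates 4 and 5 (edgeR adjusted p = 0.0082). The limits of the fit of replicates 4 and 5 given for *Cyp17a1* hold here too. The difference, replicates 4 and 5 minus replicates 1 to 3, was 0.39 ± 0.09 (edgeR adjusted p = 0.022), of opposite sign to that of *Cyp17a1*.

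Markers of other cell types differed between the same sets of libraries. The 8 stromal markers summed to 387589 to 396505 normalized counts in *Dis3* cKO and 187493 to 188362 in control replicates 4 and 5, and to 194872 to 258759 in *Dis3* cKO and 249319 to 278071 in control replicates 1 to 3. The 8 myoid markers summed to 94678 to 97190 in *Dis3* cKO and 65154 to 65224 in control replicates 4 and 5, and to 79876 to 91064 in *Dis3* cKO and 94424 to 98223 in control replicates 1 to 3. The stromal and myoid sums were thus higher in *Dis3* cKO than in control libraries of replicates 4 and 5. In replicates 1 to 3 they were mostly lower, like the level of *Star*, but single markers differed. Within replicates 1 to 3 alone, edgeR called 1 stromal marker (*Dpt*) higher and 0 lower, and 0 myoid markers higher and 3 lower. The fold change was larger in replicates 4 and 5 for 5 of 8 stromal, 6 of 8 myoid and 1 of 9 endothelial markers by the interaction test (edgeR adjusted p under 0.05), and for 0 of 12 Sertoli cell markers. Of 11 germ cell markers tested, 3 had a more negative fold change in replicates 4 and 5, as *Cyp17a1* did. The 12 germ cell markers summed to 21760 to 22569 in *Dis3* cKO and 36174 to 36552 in control replicates 4 and 5, and to 27224 to 28409 in *Dis3* cKO and 30278 to 34172 in control replicates 1 to 3. None of these markers was at 0 in every library, and their part in the differences of *Star* and *Cyp17a1* was not tested.

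*Cyp11a1* (ENSMUSG00000032323.13, chr9:58006411-58027023), which encodes the side chain cleavage enzyme, had 1068, 1570, 1462, 1717 and 1960 normalized counts in *Dis3* cKO replicates 1 to 5, against 1310, 1353, 1425, 2005 and 2115 in controls. *Dis3* cKO replicate 1 was the lowest library, and replicates 4 and 5 were again the highest in each group. Its log2 fold change was -0.08 ± 0.17 (95% interval -0.43 to 0.28, edgeR adjusted p = 0.828). Of its 4804 exon bases, 145 are shared with the same-strand gene *Gm17322*, and reads there are assigned to neither gene.

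*Cyp17a1* was also set against the other Leydig cell transcripts within each library, a comparison chosen after the values were seen and given without a test. The ratio of normalized counts of *Cyp17a1* over *Star* was 0.589 and 0.646 in *Dis3* cKO replicates 4 and 5, and 1.02 to 1.26 in *Dis3* cKO replicates 1 to 3, against 1.14 to 1.28 in the 5 controls. *Dis3* cKO replicates 4 and 5 thus lay apart from the other 8 libraries. *Cyp17a1* over *Hsd3b1* averaged 0.624 ± 0.172 in *Dis3* cKO and 0.813 ± 0.101 in control libraries, and *Cyp17a1* over *Cyp11a1* averaged 3.04 ± 0.74 in *Dis3* cKO and 3.74 ± 0.45 in control libraries (SD, n = 5 each), with overlapping groups in each case. *Dis3* cKO replicates 4 and 5 were again apart from the other 8 libraries, at 0.439 and 0.446 over *Hsd3b1* and 2.36 and 2.16 over *Cyp11a1*. *Cyp17a1* over *Lhcgr* was 4.38 to 6.88 in *Dis3* cKO and 8.21 to 10.2 in control libraries, with no overlap. That separation adds nothing to the single genes, since *Cyp17a1* was lower and *Lhcgr* higher in every *Dis3* cKO library than in every control.

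**Figure D2:**
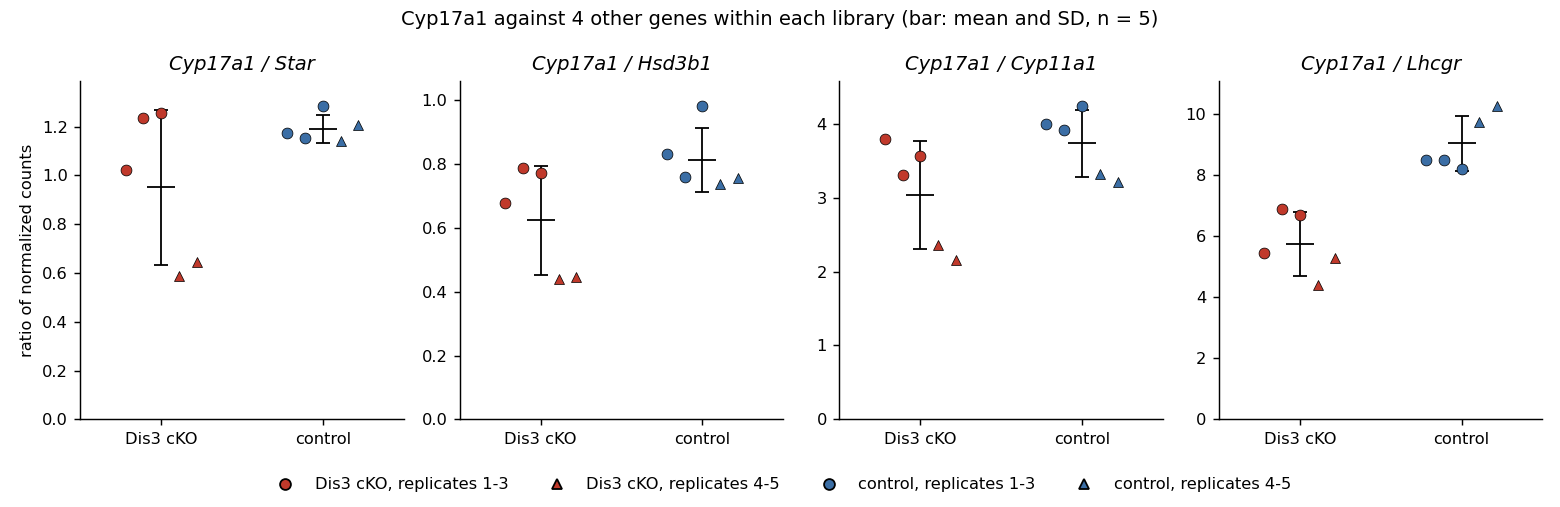
Ratio of normalized counts of *Cyp17a1* to *Star*, *Hsd3b1*, *Cyp11a1* and *Lhcgr* (y axis, from 0) in each *Dis3* cKO (red) and control (blue) library, in which replicates 1 to 3 are circles and replicates 4 and 5 triangles, and the bar is the mean and SD of the 5 libraries. *Dis3* cKO replicates 4 and 5 have the lowest ratios to *Star* (0.589 and 0.646). The groups are apart only for *Lhcgr*, which follows from the separate groups of *Cyp17a1* and of *Lhcgr* themselves.

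*Lhcgr* (ENSMUSG00000024107.6, chr17:88741549-88791976), the luteinizing hormone receptor, had 744, 756, 780, 923 and 801 normalized counts in *Dis3* cKO replicates 1 to 5, against 617, 624, 736, 682 and 662 in controls. Every *Dis3* cKO library was above every control library, and replicate 4 of the *Dis3* cKO was the highest. The mean was 801 ± 72 in *Dis3* cKO and 664 ± 48 in control testes (SD, n = 5 each; exact permutation test, two-sided, p = 0.00794). The log2 fold change was 0.27 ± 0.09 (95% interval 0.09 to 0.45) and did not pass with edgeR (adjusted p = 0.070), but did with DESeq2 (adjusted p = 0.025) and with the set of libraries as a term (edgeR adjusted p = 0.027).

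*Nr5a1* (ENSMUSG00000026751.14, chr2:38692656-38714542) encodes SF-1, which binds the promoters of many steroidogenic genes. It had 9519, 11098, 11023, 8379 and 9727 normalized counts in *Dis3* cKO replicates 1 to 5, against 8581, 8233, 9383, 7757 and 7988 in controls. The groups overlapped, since *Dis3* cKO replicate 4 was below control replicates 1 and 3. The log2 fold change was 0.25 ± 0.08 (95% interval 0.07 to 0.43, edgeR adjusted p = 0.088; exact permutation test, two-sided, p = 0.0317). As for *Lhcgr*, it passed with DESeq2 (adjusted p = 0.038) and with the set of libraries as a term (edgeR adjusted p = 0.015). *Nr5a1* passed without *Dis3* cKO replicate 4 (0.036), and both genes passed without control replicate 3 (*Lhcgr* 0.040, *Nr5a1* 0.039).

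*Insl3* (ENSMUSG00000079019.2, chr8:71689214-71690575) had 146, 231, 259, 167 and 263 normalized counts in *Dis3* cKO replicates 1 to 5, against 256, 297, 286, 266 and 277 in controls. *Dis3* cKO replicates 1 and 4 were the lowest, and replicates 3 and 5 lay within the control range. The log2 fold change was -0.37 ± 0.16 (95% interval -0.71 to -0.03) and did not pass (edgeR adjusted p = 0.169; exact permutation test, two-sided, p = 0.0317). Of the 623 exon bases of *Insl3*, 404 are shared with *Jak3* on the same strand, so that reads were counted for *Insl3* from at most 219 unshared bases and its level is a lower bound.

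*Hsd17b3* (ENSMUSG00000033122.14, chr13:64058266-64089230) had 10296, 10392, 10417, 8529 and 7383 normalized counts in *Dis3* cKO replicates 1 to 5, against 10988, 10454, 10013, 8318 and 8399 in controls. *Hsd17b1* (ENSMUSG00000019301.5, chr11:101078411-101080527), whose enzyme reduces estrone and, in the mouse, also androstenedione, had 3677, 4656, 4609, 3527 and 3534 in *Dis3* cKO and 3978, 3939, 4133, 3831 and 3878 in control libraries. For both genes replicates 4 and 5 were below replicates 1 to 3 in each group, the opposite of *Star*, *Hsd3b1* and *Cyp11a1*. *Hsd17b3* had a log2 fold change of -0.03 ± 0.11 (95% interval -0.27 to 0.20, edgeR adjusted p = 0.890). For *Hsd17b1* it was 0.02 ± 0.09 (95% interval -0.17 to 0.20, edgeR adjusted p = 0.931).

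The sum of 12 Sertoli cell markers was also lower in replicates 4 and 5 of each group, although single markers differed: 10 of 12 were below replicates 1 to 3 in the *Dis3* cKO, and in the controls 6 were below and 3 above. The summed normalized counts were 214800 to 221041 in replicates 4 and 5 and 264501 to 290791 in replicates 1 to 3 of the *Dis3* cKO. In the controls they were 213762 to 214633 in replicates 4 and 5 and 227110 to 230595 in replicates 1 to 3. Between *Dis3* cKO and control testes, 1 of the 12 (*Rhox8*) was higher and 0 lower, against 4.42% and 3.48% of all genes tested. None of the 12 was at 0 in every library. The part of Sertoli cells in the levels of *Hsd17b3*, *Hsd17b1* and *Nr5a1* was not tested.

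**Figure D3:**
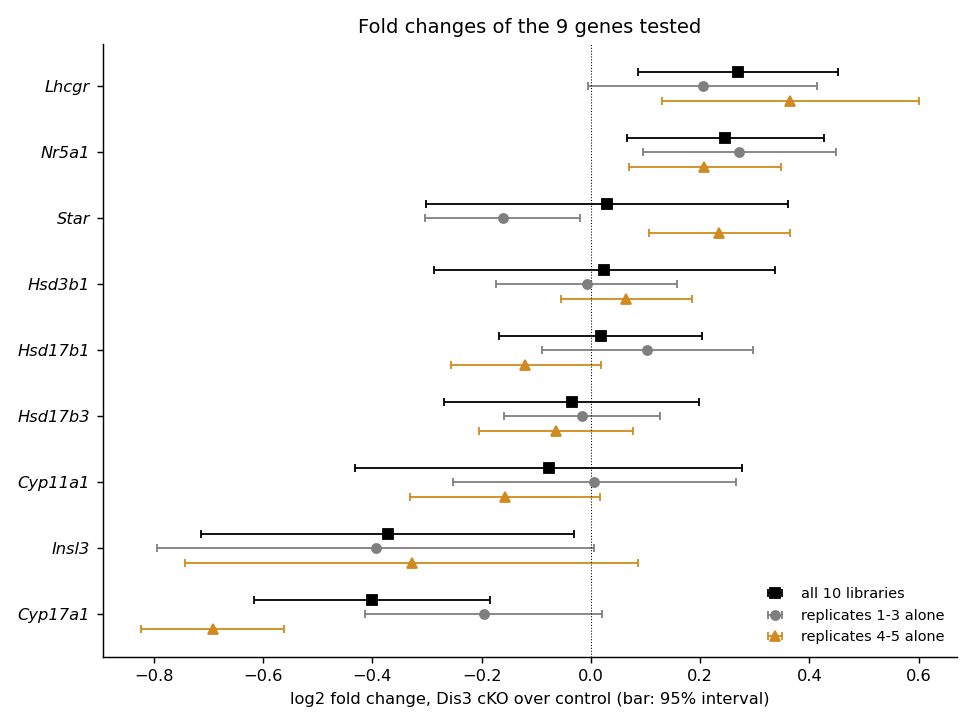
Log2 fold change of *Dis3* cKO over control (x axis) with its 95% interval for the 9 genes tested, over all 10 libraries (black squares), replicates 1 to 3 (grey circles) and replicates 4 and 5 (orange triangles). *Cyp17a1* is lowest, at -0.40 over all libraries and -0.69 in replicates 4 and 5, and *Star* lies on opposite sides of 0 in the 2 sets.

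Levels were compared between genes per kilobase of exon. In control testes the order was *Hsd17b3* (6926 ± 874 normalized counts per kb, SD, n = 5), *Hsd3b1* (4036 ± 759), *Hsd17b1* (2952 ± 87), *Cyp17a1* (2772 ± 336), *Nr5a1* (1978 ± 150), *Star* (1227 ± 154), *Insl3* (443 ± 26), *Cyp11a1* (342 ± 80), *Lhcgr* (260 ± 19) and *Hsd3b6* (2.20 ± 1.64). In controls the order of neighbours held in every library except between *Hsd17b1* and *Cyp17a1*, where it held in 3 of 5, although the ranges over libraries also overlapped between *Insl3* and *Cyp11a1* and between *Cyp11a1* and *Lhcgr*. In *Dis3* cKO testes *Cyp17a1*, at 2101 ± 280 per kb, stood below *Nr5a1*, at 2346 ± 268, in 5 of 5 libraries, whereas *Cyp17a1* was above *Nr5a1* in 5 of 5 control libraries. *Cyp11a1* was above *Lhcgr* in 2 of 5 *Dis3* cKO libraries and in 5 of 5 controls. Counted over its 219 unshared bases, *Insl3* would reach 973 per kb in *Dis3* cKO and 1261 per kb in control testes, next to *Star*.

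**Figure D4:**
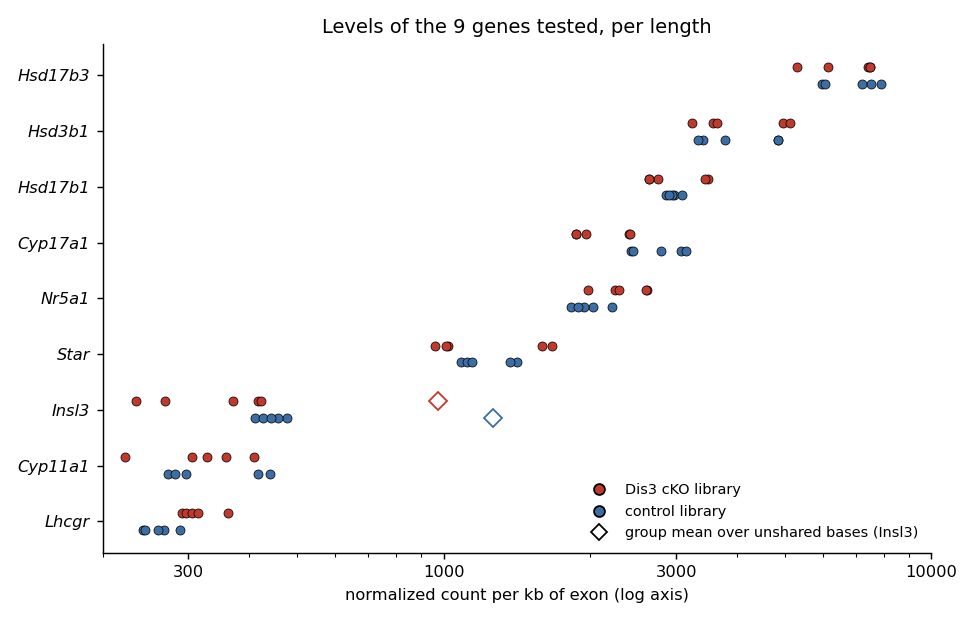
Normalized counts per kb of exon (x axis, log scale) in each *Dis3* cKO (red, upper line) and control (blue, lower line) library for the 9 genes tested, ordered by control level. Open diamonds give the group mean of *Insl3* over its 219 unshared bases (973 in *Dis3* cKO, 1261 in control); *Hsd17b3* is highest, and *Insl3*, *Cyp11a1* and *Lhcgr* overlap at the low end.

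The members did not share 1 pattern over the 10 libraries. Likeness was measured as the root mean square (RMS) difference of log2 CPM centred on each gene's mean, which is small when 2 genes go up and down together. The closest pair was *Star* and *Hsd3b1* (0.100), then *Cyp11a1* and *Hsd3b1* (0.137), *Hsd17b1* and *Nr5a1* (0.138) and *Hsd17b3* and *Hsd17b1* (0.146). *Cyp17a1* was closest to *Insl3* (0.225). Of the 3 genes most like each tested member, 0 were other members. For *Cyp17a1* they were *Impdh2* (RMS difference 0.078), *Ptges3* (0.082) and *Nubp2* (0.094), and for *Star* they were *Tm7sf3* (0.053), *Fgl2* (0.076) and *Penk* (0.076). Those of *Hsd3b1* were *Mest*, *Armcx2* and *Acsl4* (0.069 to 0.075), those of *Lhcgr* were *Kif1b*, *Svil* and *Slc4a4* (0.043 to 0.053), and those of *Nr5a1* were *Pxn*, *Mast2* and *Sidt2* (0.028 to 0.042). Those of *Insl3* were *Brk1*, *Brat1* and *Rab1b* (0.098 to 0.123), those of *Cyp11a1* were *Sec22c*, *Cntnap1* and *Itm2a* (0.097 to 0.115), those of *Hsd17b3* were *Cryl1*, *Ninl* and *Tor1aip2* (0.057 to 0.059), and those of *Hsd17b1* were *G3bp1*, *Maged1* and *Urb1* (0.034 to 0.048).

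The supply of cholesterol, the substrate of the pathway, was examined with 24 genes of its synthesis, uptake and transport. All 24 were tested, 5 fell and 0 rose, and the median log2 fold change was -0.12. Over all genes tested, 3.48% were called lower and 4.42% higher. They included *Idi1*, *Dhcr7* and *Hmgcs1*, which encode enzymes of cholesterol synthesis, and *Insig1*, whose product holds that synthesis back. *Idi1* had 276 to 341 normalized counts in *Dis3* cKO and 411 to 527 in control libraries, a log2 fold change of -0.61 ± 0.10 (SE, edgeR adjusted p = 0.0032). *Dhcr7*, the last enzyme of the synthesis, had 1853 to 2494 in *Dis3* cKO and 2676 to 3267 in control libraries (log2 fold change -0.47 ± 0.09, edgeR adjusted p = 0.0071). *Hmgcs1* fell by 0.26 ± 0.06 on the log2 scale (edgeR adjusted p = 0.016) and *Insig1* by 0.33 ± 0.09 (0.038). For each of these named genes the groups did not overlap. Without *Dis3* cKO replicate 1 or 5, or control replicate 2, 4 or 5, 3 genes of the list were called lower; the genes are expressed in many cell types of the testis.

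The P450 enzymes CYP11A1 and CYP17A1 need electron donors, and 0 of the 4 tested were called by edgeR, 1 of them (*Fdx1*) at an unadjusted p under 0.05. *Fdx1*, the ferredoxin of mitochondrial P450 enzymes, had 333 to 536 normalized counts in *Dis3* cKO and 546 to 674 in control libraries, with no overlap (log2 fold change -0.39 ± 0.12, edgeR adjusted p = 0.067). It was called lower by DESeq2 (1 of 4). *Por*, the donor of CYP17A1 (0.08 ± 0.07), *Cyb5a*, which aids its lyase step (-0.02 ± 0.07), and *Fdxr* (-0.01 ± 0.09) had edgeR adjusted p of 0.590 to 0.941. Of 17 other steroid converting enzymes, 13 were tested and 0 were called by edgeR or DESeq2, with 2 lower at an unadjusted p under 0.05 and a median of -0.10. *Akr1c14*, a 3α-hydroxysteroid dehydrogenase, had the lowest p of them (log2 fold change -0.33 ± 0.11, edgeR adjusted p = 0.081), followed by *Hsd17b7* (-0.24), *Hsd17b10* (-0.16) and *Hsd11b2* (0.21), and 1 gene was called lower without *Dis3* cKO replicate 4. *Hsd3b2*, *Cyp19a1*, *Srd5a2* and *Sult1e1* did not pass the filter, with at most 17.7 normalized counts in a library.

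**Figure D5:**
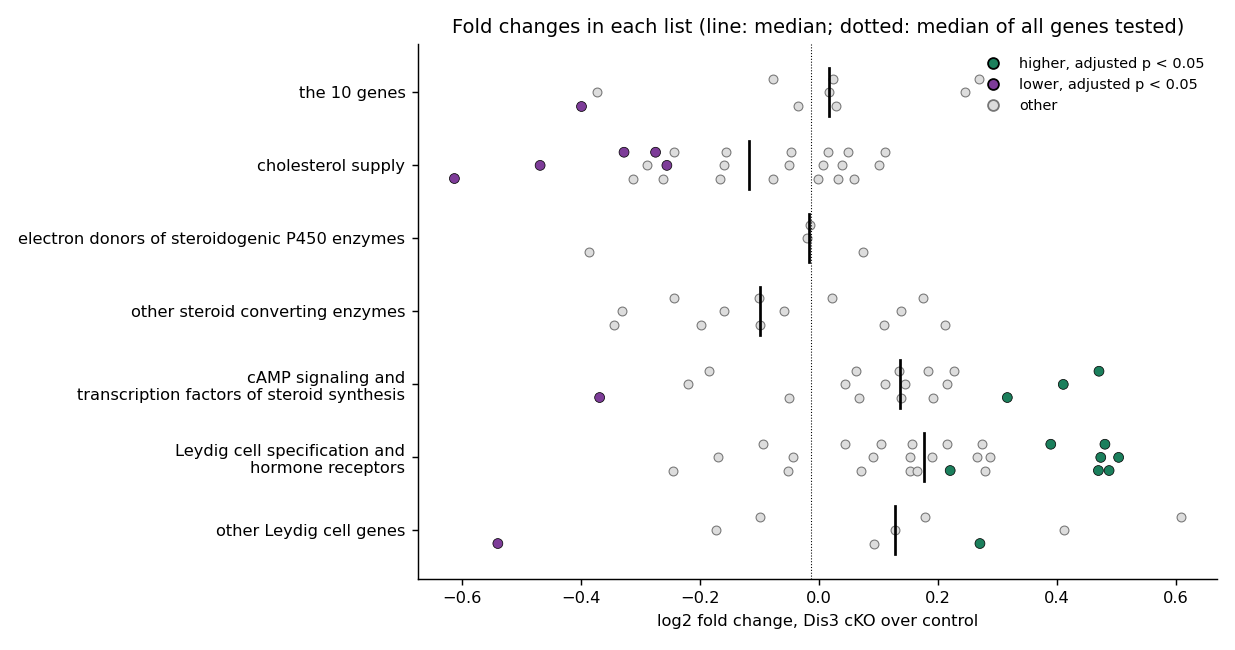
Log2 fold change of *Dis3* cKO over control (x axis) for each tested gene of the 10 genes and of 6 lists of related genes, green where called higher, purple where called lower and grey otherwise, with a line at each list's median and a dotted line at the median of all genes tested (-0.01). The cholesterol list is centred at -0.12 with 5 genes lower, and the list of specification genes and receptors at 0.18 with 7 higher.

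Signaling through cAMP and the transcription factors that act on steroidogenic promoters were followed with 18 genes, all tested, of which 3 rose and 1 fell (median log2 fold change 0.14). Over all genes tested, 4.42% were called higher and 3.48% lower, so 1 lower gene of 18 is near the general share. *Nr4a1*, an orphan nuclear receptor induced by luteinizing hormone in Leydig cells, had 1507 to 2266 normalized counts in *Dis3* cKO and 1230 to 1371 in control libraries (log2 fold change 0.47 ± 0.10, edgeR adjusted p = 0.0099). *Sp1* had 13057 to 13950 in *Dis3* cKO and 10071 to 11666 in control libraries (0.32 ± 0.06, edgeR adjusted p = 0.0086), and the immediate early gene *Egr1* rose by 0.41 ± 0.11 with overlapping groups (edgeR adjusted p = 0.034). *Nr5a2*, which encodes LRH-1, the closest relative of SF-1, had 361 to 444 in *Dis3* cKO and 504 to 561 in control libraries (-0.37 ± 0.09, edgeR adjusted p = 0.021). *Nr5a2* is therefore opposite in sign to *Nr5a1*, which itself was not called. The count called lower was 0 without *Dis3* cKO replicate 2 or 5 or control replicate 1 or 4, and 2 without control replicate 5.

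Of 26 genes of Leydig cell specification and hormone receptors, all tested, 7 rose and 0 fell, with a median log2 fold change of 0.18. The shares over all genes tested were 4.42% higher and 3.48% lower. *Igf1* had 16492 to 21635 normalized counts in *Dis3* cKO and 12644 to 13940 in control libraries (log2 fold change 0.47 ± 0.09, edgeR adjusted p = 0.0053), and its receptor *Igf1r* had 8162 to 9995 in *Dis3* cKO and 6188 to 7931 in control libraries (0.48 ± 0.08, edgeR adjusted p = 0.0040). *Gli2*, a transcription factor of Hedgehog signaling, rose by 0.47 ± 0.09, *Pdgfrb* by 0.49 ± 0.10, *Notch2* by 0.50 ± 0.13 and *Lifr* by 0.22 ± 0.06 on the log2 scale (edgeR adjusted p from 0.0071 to 0.049). These genes are also expressed outside Leydig cells, and of 8 stromal, 8 myoid and 9 endothelial cell markers 0, 1 and 1 rose and 0 fell. Within replicates 4 and 5 alone, 6 stromal, 6 myoid and 6 endothelial markers and 15 of the 26 genes were called higher, and within replicates 1 to 3 alone, 1 stromal, 0 myoid and 0 endothelial markers and 6 of the 26 genes. The shares of all genes called in the fits of 1 set alone are not given here, so these counts have no base rate. The part of stromal, myoid and endothelial cells in the genes that rose was not tested.

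Among 9 other genes known from Leydig cells, *Ren1* fell and *Gramd1b* rose, with a median of 0.13. Over all genes tested, 3.48% were called lower and 4.42% higher. *Ren1*, renin, had 1039 to 1590 normalized counts in *Dis3* cKO and 1925 to 2292 in control libraries, with no overlap (log2 fold change -0.54 ± 0.10, edgeR adjusted p = 0.0071). *Gramd1b*, which encodes a sterol transporter, had 5783 to 6119 in *Dis3* cKO and 4674 to 5744 in control libraries (0.27 ± 0.07, edgeR adjusted p = 0.025). The count called higher was 0 without *Dis3* cKO replicate 2 or 5 or control replicate 1, 2, 4 or 5. *Prlr*, at a log2 fold change of 0.41, and *Crhr1*, at 0.61, did not pass (edgeR adjusted p = 0.128 and 0.174).

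Steroidogenic cells of the adrenal cortex share much of the pathway, and adrenal-type transcripts are known in the fetal mouse testis. Of 6 adrenal markers, 5 were tested and 0 were called by edgeR or DESeq2 (0 at an unadjusted p under 0.05). *Cyp21a1* had 190 to 319 normalized counts in *Dis3* cKO and 224 to 295 in control libraries, and *Cyp11b1* had 86.1 to 165 in *Dis3* cKO and 94.9 to 135 in control libraries. *Cyp11b2*, the defining enzyme of aldosterone synthesis, was near 0, with at most 3.32 in a *Dis3* cKO and 3.73 in a control library. The summed level of the 6 was 887 to 1176 in *Dis3* cKO and 1049 to 1255 in control libraries.

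The nuclear RNA exosome removes short-lived upstream transcripts (PROMPTs), and the 3000 bases before the start were counted on the opposite strand for 30166 genes. Of the 10 members, *Hsd3b1*, *Hsd3b6*, *Hsd17b3* and *Lhcgr* had such a region in the table. *Hsd3b1* had 20 reads over the 5 *Dis3* cKO libraries and 20 over the 5 controls, and *Hsd3b6* had 15 in *Dis3* cKO and 15 in controls. *Hsd17b3* had 16 in *Dis3* cKO and 40 in controls, and *Lhcgr* had 13 in *Dis3* cKO and 24 in controls. With at most 15 reads in a library and overlapping groups, 0 of the 4 were called in either direction by edgeR (0 at an unadjusted p under 0.05), against 13.6% of all regions called higher. DESeq2 gave an adjusted p for *Hsd17b3* alone (0.458). The 95% interval of the log2 fold change spanned -1.85 to 2.29 for *Hsd3b1* and -2.83 to 0.77 for *Hsd17b3*, so that differences of this size were not detectable at this depth.

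RefSeq start sites on GRCm38.p6 gave 7 promoter windows for *Hsd3b6*, *Hsd3b1*, *Insl3*, *Cyp11a1*, *Hsd17b3* and *Lhcgr*. SF-1 is known to bind AAGGTCA and AAGGCCA, and these letters were searched on both strands in the 250 bases before each start. AAGGTCA occurred in 0 of the 7 windows, against 4.08% of all 32851 windows, and AAGGCCA in 0 of 7, against 5.24%. The shorter AGGTCA, the half-site shared by many nuclear receptors, which lies within AAGGTCA and was added after the search of the longer letters, occurred in 2 of the 7 windows, against 14.02% of all. They are shown with AGGTCA in capitals: *Lhcgr* at chr17:88792104-88792163 (minus strand), where the letters begin 122 bases before the start, and *Cyp11a1* at chr9:58014897-58014951 (plus strand), 28 bases before a start that lies inside the annotated gene.
Lhcgr: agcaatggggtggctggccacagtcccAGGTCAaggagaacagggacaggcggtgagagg
Cyp11a1: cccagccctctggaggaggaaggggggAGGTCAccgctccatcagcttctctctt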

How the data were processed

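Bulk RNA-seq libraries of 5 *Dis3* cKO and 5 control P4 testes were grouped by their labels. Per the processing notes and methods, cutadapt trimmed the reads, HISAT2 aligned them and featureCounts assigned them by strand. The authors deposited unnormalized read counts for genes and for upstream regions. Their headers name featureCounts 1.6.4 and GENCODE mouse release 18, and their coordinates are GRCm38. By default, reads that map to several places or to several genes are not counted. Symbols came from GENCODE M39 (50129 of 54232 IDs matched). All count columns were used.

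The filter on low counts was filterByExpr of edgeR 4.0.16 in R 4.3.3, at a minimum of 10 reads and a minimum total of 15. TMM factors and edgeR's quasi-likelihood test followed, with Benjamini-Hochberg adjustment over 20043 genes and a threshold of 0.05. Exact permutation tests of normalized counts, run for each of the 10 genes, are unadjusted. Log2 CPM values used a prior count of 2. Upstream regions needed a mean of 3 reads and took the library sizes of the genes. No 2 libraries of a group agreed within sampling noise (chi-square per degree of freedom of at least 4.36). The scripts were tested on simulated data. The animals were separate mice.

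The 10 genes, the lists and the sets of libraries were chosen with earlier results of these data known. The text names all 10 genes, every called gene of a list with at most 8 called (otherwise the 4 of lowest p), the 4 of lowest p in each list and the 3 genes most alike each member, among genes with an SD of at least 0.8 times its own. Single results of some list genes are not reported here. Alternatives were DESeq2 1.42.0, other scaling factors, no filter, a replicate block, the set of libraries as a term, each set alone and each library left out. Sequences are from RefSeq (GRCm38.p6) and GENCODE M39, aligned with Biopython 1.88.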

Additional observations from a re-analysis of the deposited data

Results flagged for a closer look

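*Star* and *Cyp17a1* stood out because their fold changes differed between replicates 4 and 5 and replicates 1 to 3 in an interaction test over all genes with edgeR. For *Star* the log2 fold change was 0.39 higher in replicates 4 and 5 (edgeR adjusted p = 0.022), with 2 of 2 *Dis3* cKO libraries above the controls of that set and 3 of 3 below those of the other. For *Cyp17a1* the difference was -0.50 (edgeR adjusted p = 0.047), with *Dis3* cKO libraries below the controls of their set in both sets. Between the same sets the fold change also differed for 3 germ, 5 stromal, 6 myoid, 1 endothelial and 1 erythroid cell markers by the same test. Among the 9 other Leydig cell genes it was higher in replicates 4 and 5 for *Thbs2* (edgeR adjusted p = 0.018) and lower for *Ptgds* (0.0012). No label gives what separates the sets, and the part of these cell types in the differences was not tested. In none of the 20 groups of 5 libraries did the highest or lowest value of a member lie far from the rest by Dixon's criterion (critical value 0.71).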

How the results depend on the processing

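For 4 of the 9 tested genes the call depended on the fit. *Cyp17a1* lost its call in replicates 1 to 3 alone (log2 fold change -0.20) and was -0.45 to -0.35 with 1 library left out. *Lhcgr* passed with DESeq2 (0.28), with the set of libraries as a term (0.27) and in replicates 4 and 5 alone (0.36), and was 0.21 to 0.32 with 1 library left out. *Nr5a1* passed in the same fits (0.26, 0.24 and 0.21) and was 0.20 to 0.30 with 1 library left out. *Star* passed in replicates 4 and 5 alone (0.24), and was -0.004 with the set as a term, -0.16 in replicates 1 to 3 and -0.10 to 0.11 with 1 library left out. Near 0, signs of other genes turned without a call. *Cyp11a1* was 0.006 in replicates 1 to 3 and -0.174 to 0.031 with 1 library left out. *Hsd3b1* was -0.001 without the filter, -0.008 in replicates 1 to 3 and -0.068 to 0.099 with 1 library left out. *Hsd17b1* was -0.003 without the filter, -0.12 in replicates 4 and 5 and -0.043 to 0.060 with 1 library left out, *Hsd17b3* was -0.084 to 0.040 and *Insl3* -0.46 to -0.26. The upstream regions ranged from -0.42 to 0.63 for *Hsd3b1*, -0.99 to 1.495 for *Hsd3b6*, -1.62 to -0.68 for *Hsd17b3* and -0.95 to 0.14 for *Lhcgr*. The cause of these changes was not tested.

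Of the 10 genes, 2 were called higher with DESeq2 and with the set as a term, 3 in replicates 4 and 5, and 0 to 2 with 1 library left out; 0 were called lower in replicates 1 to 3 and 0 to 1 with 1 library left out. Cholesterol genes called lower were 3 in replicates 1 to 3, 8 in replicates 4 and 5 and 3 to 5 with 1 library left out. Among electron donors 1 was called lower with DESeq2, without the filter, with the set as a term and in each set alone, but the gene was *Fdx1* in replicates 1 to 3 and *Fdxr* in replicates 4 and 5. Among other steroid enzymes 1 was called lower with the set as a term and in replicates 1 to 3, and 0 to 1 with 1 library left out (1 without *Dis3* cKO replicate 4). Of the cAMP and transcription factor list, 5 were called higher with DESeq2, 6 with the set as a term, 7 in replicates 4 and 5 and 2 to 4 with 1 library left out, while 2 were lower with DESeq2 and with the set as a term, 0 in replicates 1 to 3, 3 in replicates 4 and 5 and 0 to 2 with 1 library left out. Of the specification and receptor list, 12 were higher with the set as a term, 15 in replicates 4 and 5 and 5 to 8 with 1 library left out, and 2 were lower in replicates 4 and 5. Of the other Leydig cell genes, 0 were higher without the filter, 2 with the set as a term and in replicates 1 to 3, 4 in replicates 4 and 5 and 0 to 1 with 1 library left out, and 2 were lower in replicates 4 and 5. The shares of all genes called in these alternative fits are not given here.

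The libraries share replicate numbers, but no label says that the numbers pair them. Deviations of same-numbered libraries correlated at 0.0826 to 0.183, and those of libraries of the same set at 0.0183 to 0.183. Of the 5 *Dis3* cKO libraries, 3 correlated best with the control of their number, which does not settle whether they are paired. With a replicate block, *Star* was -0.005, *Lhcgr* 0.27 and *Nr5a1* 0.24 with both called, *Cyp17a1* -0.40, and the upstream region of *Hsd3b1* -0.074. With the replicate block 2 of the 10 genes were called higher, 1 electron donor and 1 other steroid enzyme lower, 6 and 2 of the cAMP list higher and lower, and 12 of the specification list and 2 of the other Leydig cell genes higher. It changed no other call of the 10 genes.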
